A study of Glycine max with 4 samples.

Results

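A stretch of soybean chromosome 10 that had lost its signal in fast neutron mutant plants was examined probe by probe with aCGH. The members were the 794 array probes that start on chromosome 10 from 19.4 Mb up to 22 Mb (coordinates of the soybean assembly Glyma.Wm82.a2.v1, on which the array was designed), of 951615 probes in all. The bounds had been set from the ratios of these same arrays, so the ratios are given here as a description, without a test of their own. Each array compared genomic DNA from the leaf of 1 mutant plant, labeled with Cy3, with leaf DNA of M92-220 (M92-220-Long in the labels), labeled with Cy5. M92-220 is the line whose seed was irradiated. The 4 plants were plants 35 and 45 of line CM7F040P06 (P06) and plants 15 and 39 of line CM7F040P05 (P05), all from the fast neutron population. Each plant was measured on 1 array, and the labels do not give the age of the plants. The dyes were not swapped on any array, so the ratios may carry dye bias.

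Fast neutrons break DNA, and rejoining of the broken ends can leave out anything from single bases to megabases. After selfing, such a loss can become homozygous, and plants of 1 family can differ in whether they inherited it. In aCGH, a probe to lost sequence binds only labeled M92-220 DNA, so its log2 ratio of mutant over M92-220 falls far below 0. What is left of its Cy3 signal is scanner background plus DNA from elsewhere in the genome that binds the probe. Soybean carries many duplicated and repeated sequences, so that remainder can differ from probe to probe.

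Inside the window, a span of 1304 kb, from 19986042 to 21290005, was low in both P06 plants and in P05 plant 15, and stayed near 0 in P05 plant 39. All 794 probes were measured on all 4 arrays, of which 264 lay in the span, 156 to its left and 374 to its right. The number of probes with a log2 ratio of -2 or lower was 228 in plant 35, 228 in plant 45, 231 in plant 15 and 0 in plant 39. Of all probes measured on the array, 0.133% in plant 35, 0.134% in plant 45, 0.0581% in plant 15 and 0.0418% in plant 39 were that low. Every one of the low probes in the window lay within the span. This was also the bounds' own criterion, so the counts describe the locus and are no support for it. The locus held 41.8% of the 553 low probes of plant 15, 18.0% of the 1270 of plant 35, 17.9% of the 1275 of plant 45 and none of the 398 of plant 39.

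The mean log2 ratio over the 264 probes was -4.83 in plant 35, -4.87 in plant 45, -4.76 in plant 15 and -0.021 in plant 39. Plants 35, 45 and 15 were thus within 0.11 of each other, and plant 39 was apart from all of these. In plant 39 the probes ran from -0.64 to 0.70, a range that did not touch the threshold. None of the probes was above 0 in plants 35, 45 or 15, and 262 of the 264 were lower in each of these plants than in plant 39.

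**Figure D1:**
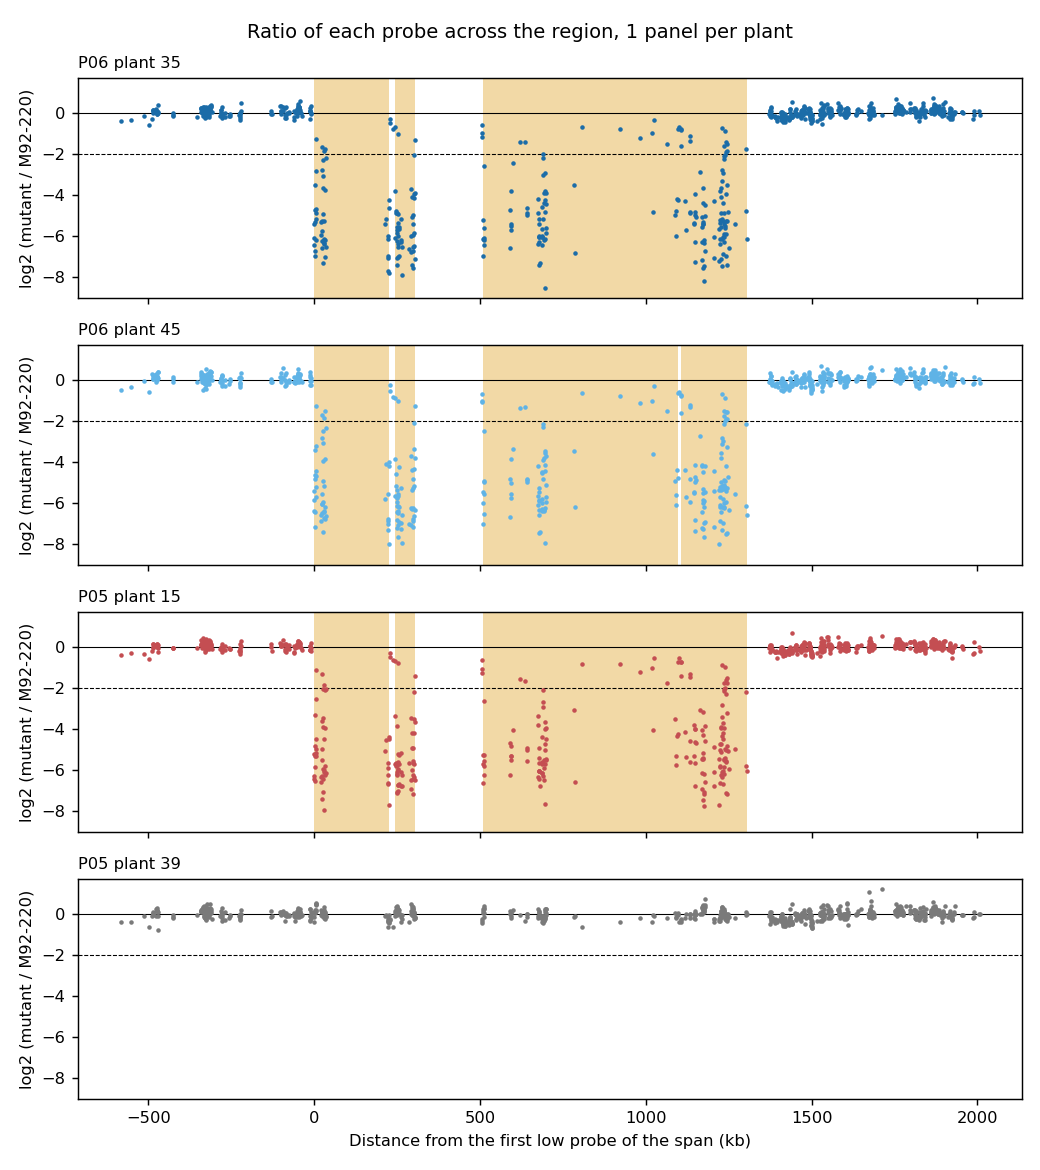
Log2 ratio (mutant over M92-220) at each of the 794 probes against the distance in kb from the first low probe, with 1 panel per plant. Each point is a probe, the dashed line is -2 and the shaded blocks are the called regions of that plant. Plants 35, 45 and 15 drop at the same probe and return at the same probe, and plant 39 has no called region.

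The outer edges fell between the same neighboring probes in plants 35, 45 and 15. On the left, probe Gm_CUST_P11604566 (19976195 to 19976239) had a log2 ratio of 0.33 in plant 35, 0.10 in plant 45, 0.19 in plant 15 and 0.095 in plant 39. Its right-hand neighbor, Gm_CUST_P11604568 (19986042 to 19986096), was at -6.11, -5.87 and -6.43 in plants 35, 45 and 15 and at -0.40 in plant 39. The step thus ran over 1 pair of probes, and the left breakpoint was placed within the 9.80 kb between them. On the right, Gm_CUST_P11605420 (21289946 to 21290005) was the last low probe, at -6.16 in plant 35, -6.60 in plant 45, -6.07 in plant 15 and 0.010 in plant 39. Gm_CUST_P11605422 (21359153 to 21359212) followed it at -0.080, -0.12, -0.039 and -0.11 in the same order, so all 4 plants were near 0 there. No probe lay in the 69.1 kb between these, so the right breakpoint was placed less closely than the left one. With both gaps counted in full, the lost stretch could have been as long as 1383 kb. A shared pair of bracketing probes does not show that the breakpoints of the plants were the same base.

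The profiles of plants 35, 45 and 15 were also alike at most probes. Of the 264 probes, 20 differed by more than 1 between plants 35 and 45, 29 between plants 35 and 15 and 28 between plants 45 and 15. The largest differences were 1.93, 1.65 and 2.73. As a description over 264 probes of the same design, which share their base composition and genomic copies, Pearson's r was 0.97 between plants 35 and 45, 0.96 between plants 35 and 15 and 0.95 between plants 45 and 15. Against plant 39 it was -0.19 for each of them. The median absolute difference per probe was 0.16 between plants 35 and 45, 0.27 between plants 35 and 15 and 0.32 between plants 45 and 15. In the flanks the same pairs differed by 0.070, 0.073 and 0.091. The plants therefore differed more on the lost probes than beside them, although by little next to the depth of the loss. Low in both P06 plants were 227 probes of the window, all of which were low in plant 15 too, and 2 probes were low in plant 15 alone. Over the whole array 1270 probes were low in plant 35, 1275 in plant 45 and 553 in plant 15, and their overlap was not counted. Because the window was chosen on these ratios, its overlap is a description only. The threshold itself split close values. Just outside it in the mean of the P06 plants was Gm_CUST_P11605417 (21289611 to 21289670), at -1.77 and -2.16 in plants 35 and 45 and -2.22 in plant 15, and just inside was Gm_CUST_P11605370 (21226262 to 21226318), at -2.08, -2.02 and -2.03.

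An interval search joined adjacent probes into a region when their weighted mean stood out and their plain mean was at -2 or lower. It placed 5 regions in the mean profile of P06. These regions held 245 probes and covered 791 kb. In that profile 0.143% of all probes measured lay in called regions. From left to right, the region from 19986042 to 20212764 held 49 probes over 227 kb with a log2 ratio of -5.16 ± 0.0034 (mean ± SD, n = 2 plants). The region from 20231070 to 20290750 held 46 probes over 59.7 kb at -5.70 ± 0.060. The third, from 20495097 to 20771558, held 56 probes over 276 kb at -5.09 ± 0.0063. Then came a short region of 6 probes over 31.5 kb, from 21050425 to 21081963, at -4.43 ± 0.19, and the region with the most probes, 88 over 197 kb from 21093412 to 21290005, at -4.89 ± 0.043. Plant 15 had means of -5.08, -5.57, -5.08, -4.16 and -4.74 over these regions, and plant 39 of -0.0092, 0.069, -0.051, -0.080 and 0.0042. In plant 15 the means were thus close to those of P06, and in plant 39 they were near 0. At 73.1% of the 245 probes in plant 35 and 71.4% in plant 45, Cy3 was too faint to stand well above background. These means are therefore limited by scanner background and give no order of loss among regions. Over the 245 probes, log2 Cy3 had an r with the ratio of 0.80 in plant 35 and 0.81 in plant 45. For log2 Cy5 it was -0.072 and -0.049.

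How the span broke into regions differed between profiles of nearly equal values. The search returned 3 regions with 255 probes over 1081 kb in plant 35 and the same 3 in plant 15, and 4 regions with 251 probes over 1070 kb in plant 45. The first and second regions had the same ends in every profile. What lay to the right of 20495097 was 1 region in plants 35 and 15, 2 in plant 45 and 3 in the P06 mean. Splits of the right-hand part hence depended on the profile searched, and the P06 mean is not midway between its plants in called length. Of all probes, 0.144% lay in called regions in plant 35, 0.144% in plant 45, 0.0598% in plant 15 and 0.041% in plant 39.

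Stretches between the called regions had mean ratios below those of the flanks in plants 35, 45 and 15, at few probes each. An apparent island from 20290751 to 20495096 (204 kb) was read by 4 probes only, with a gap of 201 kb without any probe between the first and the second. Gm_CUST_P11604910 (20291518 to 20291571) was at -1.34, -1.28 and -1.41 in plants 35, 45 and 15 and at -0.15 in plant 39. Gm_CUST_P11604917, at the far end of the gap (20492246 to 20492305), was at -1.19, -1.06, -1.28 and -0.27. On both sides of the gap the ratio was thus above -2 and below that of plant 39. The remaining probes were Gm_CUST_P11604918 at -0.61, -0.69, -0.64 and -0.35 and Gm_CUST_P11604921 at -1.01, -1.05, -1.06 and -0.46. Their mean was -1.04 in plant 35, -1.02 in plant 45, -1.10 in plant 15 and -0.31 in plant 39. At these 4 probes the island was thus below the level of the flanks in plants 35, 45 and 15, and for the 201 kb inside it there is no measurement. Its dose was not determined.

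The other stretches between regions varied from probe to probe. The longest, from 20771559 to 21050424 (279 kb), held 6 probes, with means of -1.49, -1.26 and -1.43 in plants 35, 45 and 15 and -0.30 in plant 39. With normexp background correction its mean in P06 was -0.67 in place of -1.37. One of its probes, Gm_CUST_P11605088 (21008388 to 21008447), was as low as those of the called regions, at -4.86, -3.61 and -4.07. In the stretch from 20212765 to 20231069 (18.3 kb), 1 of the 5 probes was likewise low, Gm_CUST_P11604772 (20229999 to 20230058), at -6.11, -5.66 and -5.72 and at 0.12 in plant 39. The stretch from 21081964 to 21093411 (11.4 kb, 4 probes) had means of -0.78, -0.69 and -0.69 and, in plant 39, -0.29. No stretch between called regions had as many as 10 probes.

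The 4 probes at which plants 35, 45 and 15 came closest to plant 39 all lay between called regions, 3 of them in 1 short run. Gm_CUST_P11604744 (20214372 to 20214431) was at -0.31 in plant 35, -0.25 in plant 45, -0.30 in plant 15 and -0.28 in plant 39, so the plants did not separate at it. Gm_CUST_P11604746 (20215368 to 20215416) was at -0.49, -0.53 and -0.51 against -0.29, and Gm_CUST_P11604761 (20223432 to 20223488) at -0.80, -0.85 and -0.66 against -0.64. The run covered 9.12 kb and its means were -0.53, -0.54, -0.49 and -0.40. The low probe Gm_CUST_P11604772, described above, came next on the chromosome. The probe outside the run was Gm_CUST_P11605080 (20793756 to 20793810), in the stretch of 279 kb, at -0.71, -0.63 and -0.84 against -0.63. The 3 probes of the run were bright, with a Cy5 signal of 5885, 11023 and 30888 on the array of plant 35.

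In the P06 mean, 37 probes of the span lay above -2, of which 23 were between -2 and -1 and 14 above -1. They made up 22 runs of adjacent probes, of which 15 were single probes and the longest had 5 probes. Of the 37, 20 lay inside called regions and 17 between them. Above -1 in both P06 plants and yet inside called regions were 2 probes, Gm_CUST_P11605304 (21214958 to 21215002) at -0.73 in plant 35, -0.71 in plant 45, -0.87 in plant 15 and 0.050 in plant 39, and Gm_CUST_P11605363 (21225188 to 21225247) at -0.87, -0.90, -0.99 and -0.28. Single probes of intermediate ratio were thus scattered through the called regions, mostly without a neighbor of like value. Their values recurred from plant to plant, with a median absolute difference over the 37 probes of 0.060 between plants 35 and 45, 0.12 between plants 35 and 15 and 0.14 between plants 45 and 15. At none of the 37 did any pair of these plants differ by more than 1.

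**Figure D2:**
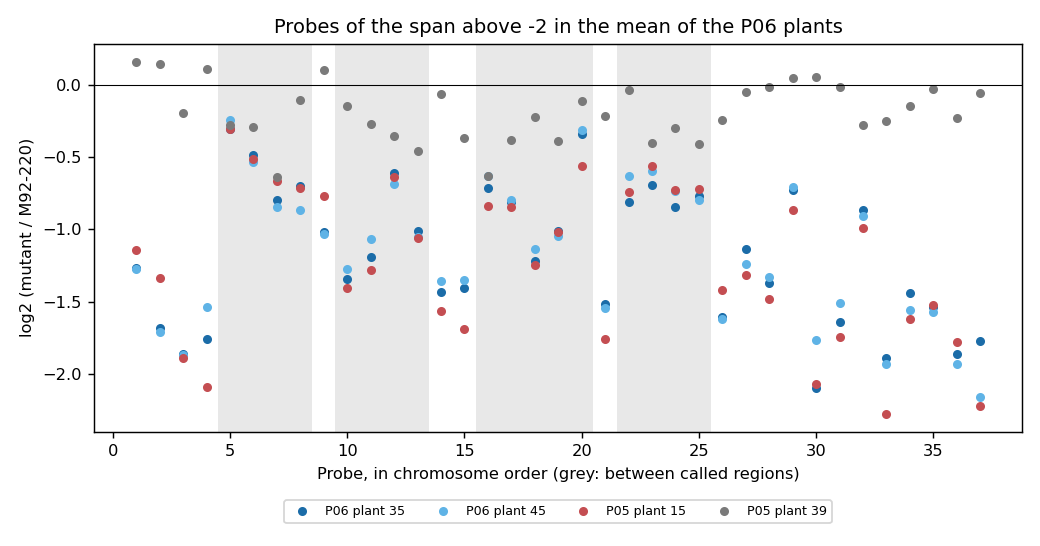
Log2 ratio of mutant over M92-220 in each of the 4 plants at the 37 probes of the span whose mean in P06 was above -2, in chromosome order; each point is a probe on 1 array and grey columns mark probes between called regions. Plants 35, 45 and 15 lie close to each other at each probe, and plant 39 lies above them at most probes.

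The 37 probes differed from the other probes of the span in brightness and length. Length had no part in the choice of the window. Cy5 is the denominator of the ratio that chose the window and split these groups, so brightness is not independent of the split. Their median Cy5 signal, from M92-220 DNA, reached 2272 for plant 35, 2293 for 45, 2094 for 15 and 2534 for 39. The other 227 probes had medians of 886, 883, 851 and 925, and all probes of the array had 1052, 1045, 1041 and 1051. Of the 37, 24 (64.9%) were shorter than 60 bases, against 33.9% of the 227, 33.6% of the flanking probes and 31.0% of all probes. The higher probes were thus brighter in the reference and more often shortened, as a description of this set. Whether they bind DNA from other places in the genome was not tested, since no probe sequences were used here.

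Brightness by itself went with a ratio slightly below 0 on every array. Over the 29 flanking probes with a mean Cy5 signal above 5000, the mean log2 ratio was -0.16 in plant 35, -0.24 in plant 45, -0.19 in plant 15 and -0.34 in plant 39. Over the 24615 such probes outside the span it was -0.18, -0.32, -0.16 and -0.32. The 11 probes of the span that were this bright had medians of -0.80, -0.80, -0.73 and -0.30, where the bright flanking probes had medians of -0.14, -0.25, -0.18 and -0.37. Their means of -1.43, -1.44, -1.40 and -0.34 were drawn down by Gm_CUST_P11604990 (20664296 to 20664350), at -6.31 in plant 35, and Gm_CUST_P11605357 (21223396 to 21223440), at -2.23. Without these, the other 9 had means of -0.80, -0.78, -0.75 and -0.40. In plants 35, 45 and 15 the bright probes of the span were thus lower at the median than those of the flanks, and in plant 39 they were not. The window was chosen on these ratios and the span was bounded by low P06 ratios. This difference therefore follows in part from the choice and is a description only.

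What remained of the signal at the lost probes was read from the dyes themselves. Over the 227 probes at -2 or lower in the P06 mean, the median Cy3 signal was 13.1 in plant 35, 12.7 in plant 45 and 15.2 in plant 15, and 921 in plant 39. The Cy5 medians were alike on the 4 arrays, as given above, so the difference between the plants was in the mutant channel. Cy3 was not well above background, by the call of the scanner software, at 79.3% of the 227 probes in plant 35, 77.5% in plant 45, 83.3% in plant 15 and 0.881% in plant 39. For these probes the ratio has no lower bound of its own, and the depth of the loss is set by the floor of the scanner. At 172 probes of the span Cy3 was not well above background in either P06 plant, and at 170 of these it was not in plant 15 either.

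For those 172 probes only an approximate bound on the loss can be given. M92-220 was at least 1.82-fold to at least 109-fold brighter than the P06 plants, with a median bound of 21.0-fold, and the bound was above 10-fold at 144 probes. Each bound sets the mean Cy5 signal of the P06 arrays against the lowest Cy3 signal that was called well above background, 35.7 on the array of plant 35 and 34.4 on that of plant 45, or against the probe's own Cy3 where that was higher. The call was made spot by spot, and some spots brighter than these lowest signals were not called well above background. An example in the span was Gm_CUST_P11604999, with a Cy3 signal of 51.7 in plant 35. The bounds could therefore be too high at some probes. With no dye swap, the bounds are also open to dye bias. A low bound came from a dim probe and does not show a smaller loss.

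**Figure D3:**
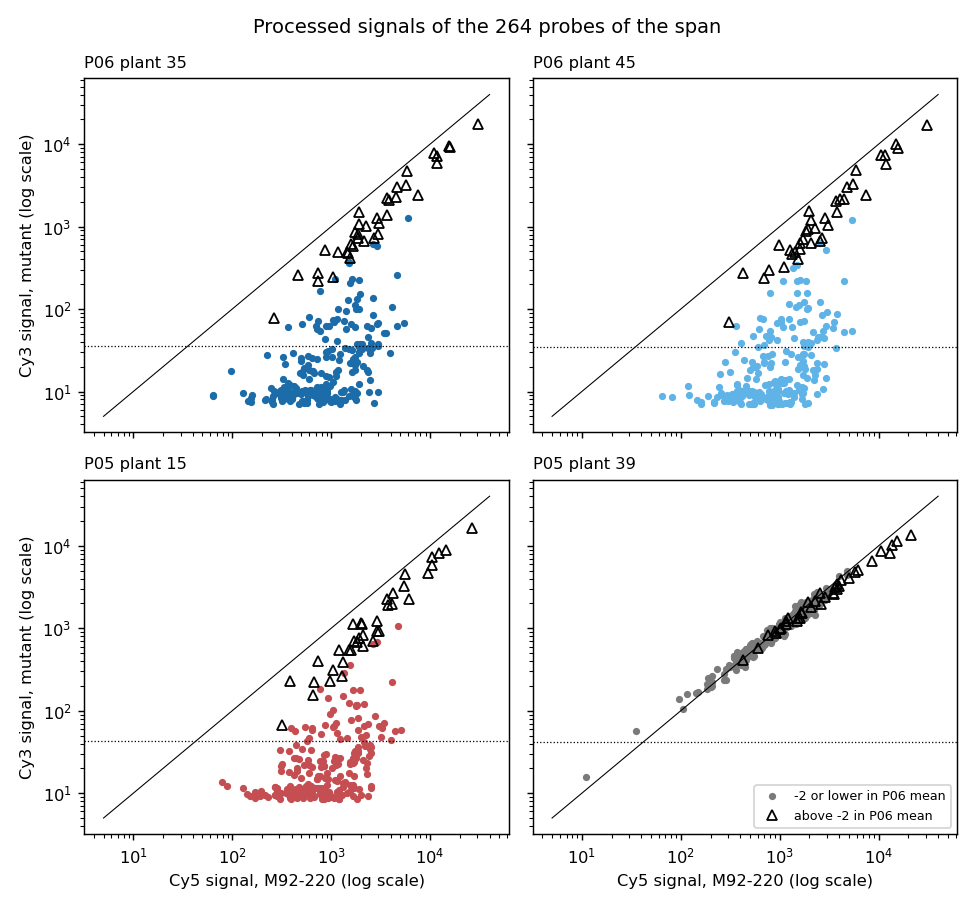
Processed Cy3 signal of the mutant against processed Cy5 signal of M92-220 at the 264 probes of the span, both on log scales, with 1 panel per plant; the solid line is equality and the dotted line is the lowest Cy3 signal called well above background on that array. Filled points are the 227 probes at -2 or lower in the P06 mean and open triangles the 37 above it. Most filled points lie under the dotted line in plants 35, 45 and 15 and on the solid line in plant 39.

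A smaller group kept a measurable Cy3 signal. At 33 low probes Cy3 was well above background in both P06 plants and in plant 15, with medians of 107, 112 and 102, and 1818 in plant 39. Their mean log2 ratios were -3.79, -3.79 and -3.81, and -0.081 in plant 39. The means of these plants thus lay close together. Over the other 194 low probes the medians were 10.5, 10.3 and 12.1 and, in plant 39, 813. The 33 probes were, like the 37 above, brighter in Cy5 (median 1764 in plant 35, 1763 in plant 45, 1778 in plant 15 and 1956 in plant 39) and more often under 60 bases (63.6%, against 28.9% of the 194). These groups and the probes above -2 were split by Cy3 and by the ratio, so the rise in Cy3 between them followed from the split. The values of single probes recurred between plants. Across the 227 low probes, which share sequence and array position by design, log2 Cy3 had an r of 0.94 between plants 35 and 45, 0.91 between plants 35 and 15 and 0.91 between plants 45 and 15. Against plant 39, which had no loss there, it was 0.49, 0.49 and 0.46 for plants 35, 45 and 15.

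The lowest single probes of P06 were Gm_CUST_P11605066, Gm_CUST_P11604850 and Gm_CUST_P11605210. Gm_CUST_P11605066 (20683074 to 20683131) was at -8.54 in plant 35, -7.96 in plant 45, -7.68 in plant 15 and 0.084 in plant 39. Its Cy3 signal was 7.21, 10.8, 12.3 and 1468 against a Cy5 signal of 2691, 2717, 2538 and 1391. Probes of this depth thus combined a bright reference with a mutant signal at the scanner floor. The other two were at -7.94 ± 0.037 and -7.94 ± 0.39 (mean ± SD, n = 2 plants). In P05 the probe with the lowest line mean was Gm_CUST_P11604735 (20210328 to 20210387), at -7.70 in plant 15 and -0.44 in plant 39, followed by Gm_CUST_P11605241 at -7.73 and -0.37 and Gm_CUST_P11604668 at -7.98 and -0.020. A line mean of P05 describes neither plant here.

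Dim reference signal touched 2 probes of the span, both on the array of plant 39 only. Gm_CUST_P11604611 (19991451 to 19991510) had a Cy5 signal of 11.1 and a Cy3 signal of 15.6 there, and 243 to 304 in Cy5 on the other arrays. Gm_CUST_P11605223 (21165589 to 21165643) had 35.1 and 56.9, and 761 to 833 in Cy5 elsewhere. Both dyes were faint in these spots of plant 39, and their ratios of 0.50 and 0.70 were measured near the scanner floor. They are the 2 probes of the 227 at which Cy3 was not well above background in plant 39.

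The flanks were near 0 in all 4 plants. From 19404347 to 19976239 the 156 probes of the left flank had a mean log2 ratio of 0.045 in plant 35, 0.045 in plant 45, 0.025 in plant 15 and 0.0073 in plant 39. From 21359153 to 21992667 the 374 probes of the right flank had means of 0.024, 0.021, -0.0096 and -0.035. SDs over probes were 0.17 to 0.24, so the flank means lay within a fraction of the spread of single probes. The 10 probes nearest the span had means of 0.026, 0.0034, -0.065 and -0.060 on the left and 0.032, 0.025, -0.031 and -0.15 on the right. In plants 35, 45 and 15 no flanking probe was beyond 1 in either direction.

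Above 1 in plant 39 were 2 probes of the right flank, Gm_CUST_P11606285 (21697765 to 21697809) at 1.19 and Gm_CUST_P11606181 (21658447 to 21658495) at 1.04. The first was dim on every array, with a Cy5 signal of 16.2 to 18.1. The second had a Cy5 signal of 17.2 and a Cy3 signal of 35.2 in plant 39, against 2175 to 2324 in Cy5 on the other arrays, where its ratio was 0.31 in plant 35, 0.17 in plant 45 and 0.26 in plant 15. These were also the highest probes of P05 in the window. The highest of P06 were Gm_CUST_P11606594, Gm_CUST_P11606303 and Gm_CUST_P11606762, all in the right flank, at 0.60 ± 0.19, 0.59 ± 0.13 and 0.59 ± 0.059. Plant 39 had 0.57, 0.47 and 0.37 at these probes and plant 15 had 0.40, 0.37 and 0.28, so the plants were high there together.

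Probes were sparse in the span and also to its left. The span held 202 probes per Mb, against 980 per Mb on the whole of chromosome 10 and 1003 per Mb on all chromosomes. The left flank held 266 per Mb and the right flank 527 per Mb. The other deleted spans compared below held from 263 per Mb on chromosome 7 to 672 per Mb on chromosome 6. Gaps of more than 30 kb between adjacent probes made up 47.3% of the left flank and 9.92% of the right flank. In the span, 10 such gaps made up 66.2% of the length. The longest after that of 201 kb were 180 kb, from 20021303 to 20201168, and 115 kb, from 20793810 to 20909208. The 180 kb gap lay inside the first called region, between probes at -6.60 and -5.63 in the P06 mean, so most of the length of that region is inferred from its ends. The median distance between adjacent probes was 531 bases, since the probes stood in clusters. Most of the span was therefore not read by any probe, and lengths in kb rest on the gaps as well as on the probes. Soybean chromosomes hold long repeat-rich tracts around their centromeres, in which unique probes are hard to place. The files give no gene names, and genes in the span were not analysed here.

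Across the 4 arrays, a test over all 951298 probes (limma, treat against an absolute log2 ratio of 1, Benjamini-Hochberg adjusted p under 0.05, with 1 mean per line and a shared spread) called 0 of the 794 probes lower in P06 than in M92-220, where it called 0.0875% of all probes. At an unadjusted p under 0.05 it called 234 probes of the window and 0.177% of all. Between the lines it called 0 probes lower in P06 than in P05, where it called 0.0769% of all probes, and 7 at an unadjusted p under 0.05 (0.0922% of all). The spread in this fit included the difference between plants 15 and 39, which at these probes was as deep as the loss itself. Fitted to plants 35 and 45 only, treat called 242 probes lower than M92-220, where 0.158% of all probes were called. Without plant 15 it called 242 probes lower in P06 than in M92-220 (0.158% of all) and 234 lower in P06 than in P05 (0.153% of all). Without plant 39 the counts were 242 (0.158% of all) and 0 (0.0836% of all). Limma with eBayes against 0, counting only probes with an absolute log2 ratio above 1, called 250 probes lower in P06 (0.215% of all) and 0 lower than in P05 (0.0895% of all). Because the window was chosen on these ratios, nothing is read from these counts beyond their dependence on the P05 plants.

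Of 4 other deleted spans that were compared with the span from 19986042, 3 had the plants in the same arrangement. The 4 were picked from a longer list of regions. Each span is bounded by called regions of the P06 mean, so low ratios of the P06 plants there were set in advance. Plant 39 had 398 low probes on its array, all of them outside these spans. On the other chromosome 10 span (14796450 to 15370810, 249 probes) the mean log2 ratio was -4.95 in plant 35, -5.06 in plant 45, -5.00 in plant 15 and -0.052 in plant 39. On chromosome 6 (18128869 to 18201820, 49 probes) it was -4.56, -4.64, -4.55 and -0.081, and on chromosome 14 (26774074 to 26801907, 18 probes) -3.05, -3.10, -3.13 and 0.031. On chromosome 7 (25564698 to 29366100, 998 probes) the order differed, with -4.05 and -4.09 in the P06 plants and -0.0013 and -0.038 in plants 15 and 39. Plant 15 was low at this locus, at the other chromosome 10 span and on chromosomes 6 and 14, and not on chromosome 7. The stretch between the 2 chromosome 10 spans, with 1305 probes from 15401007 to 19976239, had means of 0.033 in plant 35, 0.042 in plant 45, 0.013 in plant 15 and -0.010 in plant 39.

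Above -1 in the P06 mean lay 5.30% of the probes of the span described here, 2.41% in the other chromosome 10 span, 4.08% on chromosome 6, 16.7% on chromosome 14 and 19.2% on chromosome 7. Above -0.5 lay 0.758% here, 0.803% in the other chromosome 10 span, 2.04% on chromosome 6, 0% on chromosome 14 and 15.5% on chromosome 7. The chromosome 7 span thus contained many probes near 0. The 1304 kb on chromosome 10 contained 2, the other chromosome 10 span 2, the chromosome 6 span 1 and the chromosome 14 span 0. These shares are descriptions of spans that were each chosen on the ratios, and their differences were not tested.

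**Figure D4:**
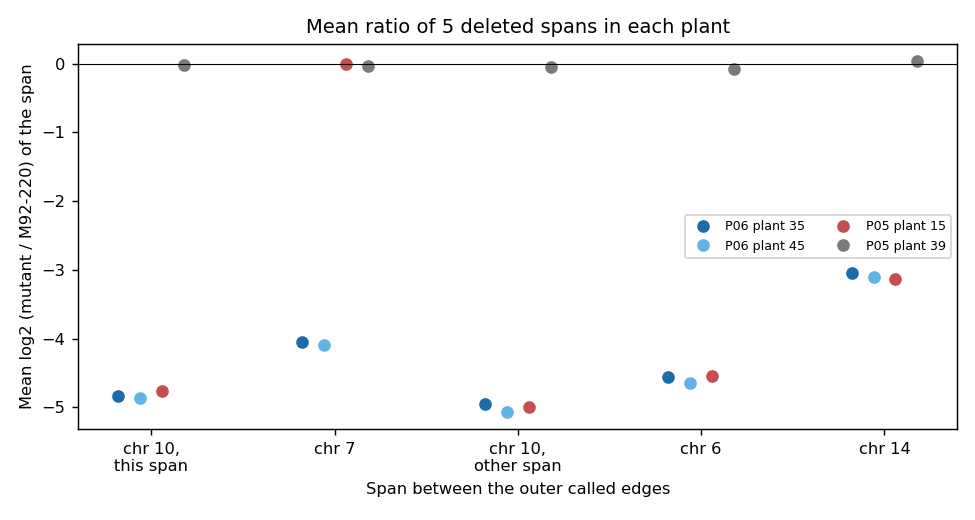
Mean log2 ratio of mutant over M92-220 over the probes of 5 deleted spans, with 1 point per plant and no error bars since each point is 1 array. Plants 35 and 45 are low at every span, plant 15 at all but that of chromosome 7, and plant 39 is near 0 at every one. The spans are bounded by called regions of the P06 mean, so low P06 plants were set in advance.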

How the data were processed

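Genomic DNA of 4 plants was measured on 4 two-color Agilent arrays, 1 per slide. For each array the authors deposited the scanner software's table (Agilent Feature Extraction 12.0.0.7). Per the file headers, that software had background-subtracted and linearly dye-normalized the deposited processed intensity of each dye. From the deposited log10 ratio, only its error was used, for the search weights. A deposited table of log2 ratios, which matched the scanner ratios apart from a constant per array (column medians -0.051 to -0.024; how it was centered is not given in the sources used here), was used as an alternative. Flagged spots were left out (210 to 861 per array), spots of a probe averaged, and log2 ratios centered on the array median (-0.0082 to -0.0038 before), without loess. Median processed signals were 1034 to 1054. All arrays were scanned on 1 day, so no batch could be tested. Precision is limited by there being 2 plants per line.

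The interval search accepted intervals of 3 to 3000 probes with a score of at least 6 and joined those at -2 or lower. The search was tried on deletions planted in a shuffled chromosome 10 profile of P06, without the real order of probes. Limma 3.58.1 (R 4.3.3) was tried on simulated ratios. The outcomes of these trials are not given here. Other steps used Python 3.11.15, numpy 2.4.6, pandas 2.3.3 and numba 0.67.0. Named in the text are the probes at the edges, every called region, the stretches between them, probes above -1 inside called regions, and the 3 highest and lowest probes of each line; other probes were singled out after their values were seen. The window, lists and tests were chosen with earlier results of these data known. Alternatives covered centering, flagged spots, source of the ratios, normexp with an offset of 50, dim probes, thresholds, segmentation, the test and leaving out each plant.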

Additional observations from a re-analysis of the deposited data

How the results depend on the processing

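No paired analysis was possible because no plant number occurs in both lines. Of 107 recomputed values, 88 stayed within 1.5 times (counts and lengths) or 1 SD of the P06 plants (means). The 88 include the counts and lengths of plant 39, which were 0 throughout. They also include limma counts that stayed at 0, in 7 of 12 alternatives against M92-220 and in 10 of 11 against P05. No mean changed sign, and counts and lengths cannot do so. With normexp background correction (offset 50), which lifts the floor of faint Cy3 signals, 135 probes in place of 227 were at -2 or lower in the P06 mean, the mean of the called probes was -2.21 in place of -5.13, and limma treat called 1 probe lower in P06 than in M92-220 in place of 0. Joining regions with a mean of -1 or lower gave a called length in the P06 mean of 1293 kb in place of 791 kb, nearly the whole span. The other segmentations gave 683 kb (runs of at least 3 low probes), 712 kb (PELT changepoints, with a penalty multiple of 20 set with these profiles known) and 1081 kb (search score of 10). Without 1 P06 plant or the other, the P06 counts at -2 were 228 to 228, the called lengths 1070 to 1081 kb and the means -5.15 to -5.11. For limma, eBayes against 0 with an absolute log2 ratio above 1 gave 250 probes lower in P06, and treat on the P06 arrays alone 242. Leaving out each plant gave 0 to 242 probes lower than in M92-220 and 0 to 234 lower than in P05; the counts of 242 came without P05 plant 15 or without plant 39, and 234 came without plant 15. Scanner background limits how low a ratio can go, and the probe gaps limit lengths and breakpoints.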
